A study of Mus musculus with 13 samples.

Results

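Ikaros and Bcl11 genes encode C2H2 zinc finger transcription factors that guide lymphocyte development, and 7 of them were followed through the sorted thymocytes of Sox4 conditional knockout (cKO) and wild type (WT) mice: Ikzf1 (Ikaros), Ikzf2 (Helios), Ikzf3 (Aiolos), Ikzf4 (Eos), Ikzf5 (Pegasus), Bcl11a and Bcl11b. They were chosen by gene symbol, with the brightest probe set standing for each gene, and are 7 of the 19752 genes that a probe set with a single annotated symbol could measure. RNA came from 4 groups of thymic cells of mice 2 weeks old: V2 cells of Sox4 cKO mice (4 arrays), V2 cells of WT mice (4 arrays), DP cells of Sox4 cKO mice (3 arrays) and DP cells of WT mice (2 arrays). V2 cells are immature γδ T cells, sorted as TCRδ positive, Vγ2 positive and HSA high after CD4 and CD8 positive cells were excluded, and DP cells, sorted as CD4 and CD8 positive, are thymocytes on the way to αβ T cells. The labels give the sex as mixed, and they do not give the number of animals behind an array, the Cre driver, or whether WT mice carried a floxed allele or Cre. The labels do not say that arrays of a group came from separate mice, and the p-values then reflect the spread among these RNA samples alone, which may be technical.

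V2 titles are written in 2 ways, with V2imm on 4 arrays (2 cKO, 2 WT) and immV2 on the other 4, and the labels do not say what this marks. A pair of arrays went against their labels and were kept apart from group means and tests. Over 8 markers of DP thymocytes, summed intensity was 2471 on DP cKO replicate 5, against 37215 to 43040 on the 4 other DP arrays, and it was 42378 on V2 WT replicate 5 of the immV2 titles, against 2306 to 3387 on the 7 other V2 arrays. The comparisons therefore use 11 arrays (4 V2 cKO, 3 V2 WT, 2 DP cKO and 2 DP WT), and each gene is also given on the 2 arrays kept apart. Levels are log2 of the deposited RMA intensity, so a difference of 1 is a doubling, and they compare a gene with itself across arrays, not one gene with another. The median gene stood between 6.93 and 7.10 on this scale on the 13 arrays.

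Ikaros proteins bind DNA through N-terminal zinc fingers that read a GGGAA core and pair with each other through C-terminal fingers. Much of their effect on chromatin runs through the nucleosome remodelling and deacetylase complex (NuRD). In the thymus Ikaros restrains the passage of early cells to the DP stage, while Bcl11b is needed for T lineage commitment and for keeping alternative lymphoid programmes silent.

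Promoter windows of member genes, Ikaros and Bcl11 alike, are shown with the GGGAA core read by Ikaros marked. RefSeq windows (build GRCm38.p6, from 250 bases before to 50 bases after the start) were matched by symbol for 4 of the 7 genes, giving 5 windows. They are printed 5′ to 3′ on the strand of the gene, with GGGAA, or TTCCC where the core lies on the opposite strand, in capitals.
Ikzf1, first start, chr11:11685675-11685974, plus strand: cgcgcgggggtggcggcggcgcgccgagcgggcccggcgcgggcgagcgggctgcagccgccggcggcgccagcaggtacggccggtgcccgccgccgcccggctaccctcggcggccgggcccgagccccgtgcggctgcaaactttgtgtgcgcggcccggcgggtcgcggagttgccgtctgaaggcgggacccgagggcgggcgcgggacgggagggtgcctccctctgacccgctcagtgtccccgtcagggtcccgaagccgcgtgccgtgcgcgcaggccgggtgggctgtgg
Ikzf1, second start, chr11:11689927-11690226, plus strand: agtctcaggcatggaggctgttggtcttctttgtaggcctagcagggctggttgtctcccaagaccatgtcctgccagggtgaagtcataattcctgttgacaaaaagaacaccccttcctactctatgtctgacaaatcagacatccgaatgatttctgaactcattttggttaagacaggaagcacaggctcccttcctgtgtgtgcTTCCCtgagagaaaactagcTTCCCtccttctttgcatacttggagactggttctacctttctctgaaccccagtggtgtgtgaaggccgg
Ikzf5, chr7:131410429-131410728, minus strand: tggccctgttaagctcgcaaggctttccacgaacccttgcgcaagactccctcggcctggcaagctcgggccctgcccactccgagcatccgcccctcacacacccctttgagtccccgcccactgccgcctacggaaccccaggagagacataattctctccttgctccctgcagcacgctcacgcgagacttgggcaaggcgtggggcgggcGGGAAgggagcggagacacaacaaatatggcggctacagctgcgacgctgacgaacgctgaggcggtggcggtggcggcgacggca
Bcl11a, chr11:24080445-24080744, plus strand: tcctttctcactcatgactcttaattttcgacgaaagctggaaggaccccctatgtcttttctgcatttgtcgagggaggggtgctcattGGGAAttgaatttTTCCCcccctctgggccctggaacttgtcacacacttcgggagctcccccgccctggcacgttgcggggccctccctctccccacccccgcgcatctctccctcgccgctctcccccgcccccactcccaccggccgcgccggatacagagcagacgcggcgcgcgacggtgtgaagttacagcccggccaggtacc
Bcl11b, chr12:108003365-108003664, minus strand: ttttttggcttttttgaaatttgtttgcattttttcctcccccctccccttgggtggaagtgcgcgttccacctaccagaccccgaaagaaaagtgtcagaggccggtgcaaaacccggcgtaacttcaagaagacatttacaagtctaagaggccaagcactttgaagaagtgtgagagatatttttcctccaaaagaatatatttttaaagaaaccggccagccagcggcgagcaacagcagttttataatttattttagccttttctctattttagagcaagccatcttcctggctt

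The 2 start sites of Ikzf1 differ in base composition. The first window is 81.33% G and C with 52 CpG dinucleotides, and the second is 49.0% G and C with 2, against medians of 52.67% and 7 over 32851 RefSeq windows of the same length. GGGAA is absent from the first Ikzf1 window and starts 41 and 21 bases before the second start. It lies 36 bases before the Ikzf5 start, and 160 and 147 bases before the Bcl11a start, where the first of them is part of the longer TGGGAA. The Bcl11b window, 43.0% G and C with 9 CpG, has none. The core is short, and 62.7% of all windows hold it on either strand, TGGGAA being in 25.6%. ACAAAG, a motif read by the HMG box of Sox and TCF factors, was found 106 and 222 bases before the Ikzf1 starts and in none of the other 3 windows, and 18.7% of all windows hold it. Neither ACAATG nor TGACCA, also searched on both strands and held by 12.6% and 13.6% of all windows, was found in the 5.

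Sox4, the targeted HMG box factor, did not separate the genotypes on its single probe set. Sox4 was at 8.07 and 9.60 on the V2imm cKO arrays (replicates 4 and 5) and at 8.11 and 8.23 on the immV2 cKO arrays (replicates 3 and 4), against 8.71 and 8.64 on the V2imm WT arrays and 9.68 on the immV2 WT array. In DP cells it was at 8.74 and 8.68 in cKO, against 9.37 and 8.55 in WT. The array labelled V2imm cKO replicate 5 thus lay above 2 of the 3 V2 WT arrays, and the 2 DP genotypes overlapped. The fitted differences were -0.51 (SE 0.38) for V2 cKO minus V2 WT and -0.25 (SE 0.49) for DP cKO minus DP WT, neither past the threshold. The place of the probe set relative to the deleted part of Sox4 is not given, so it does not check the genotype labels, and the comparisons of cKO with WT below rest on those labels.

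**Figure D1:**
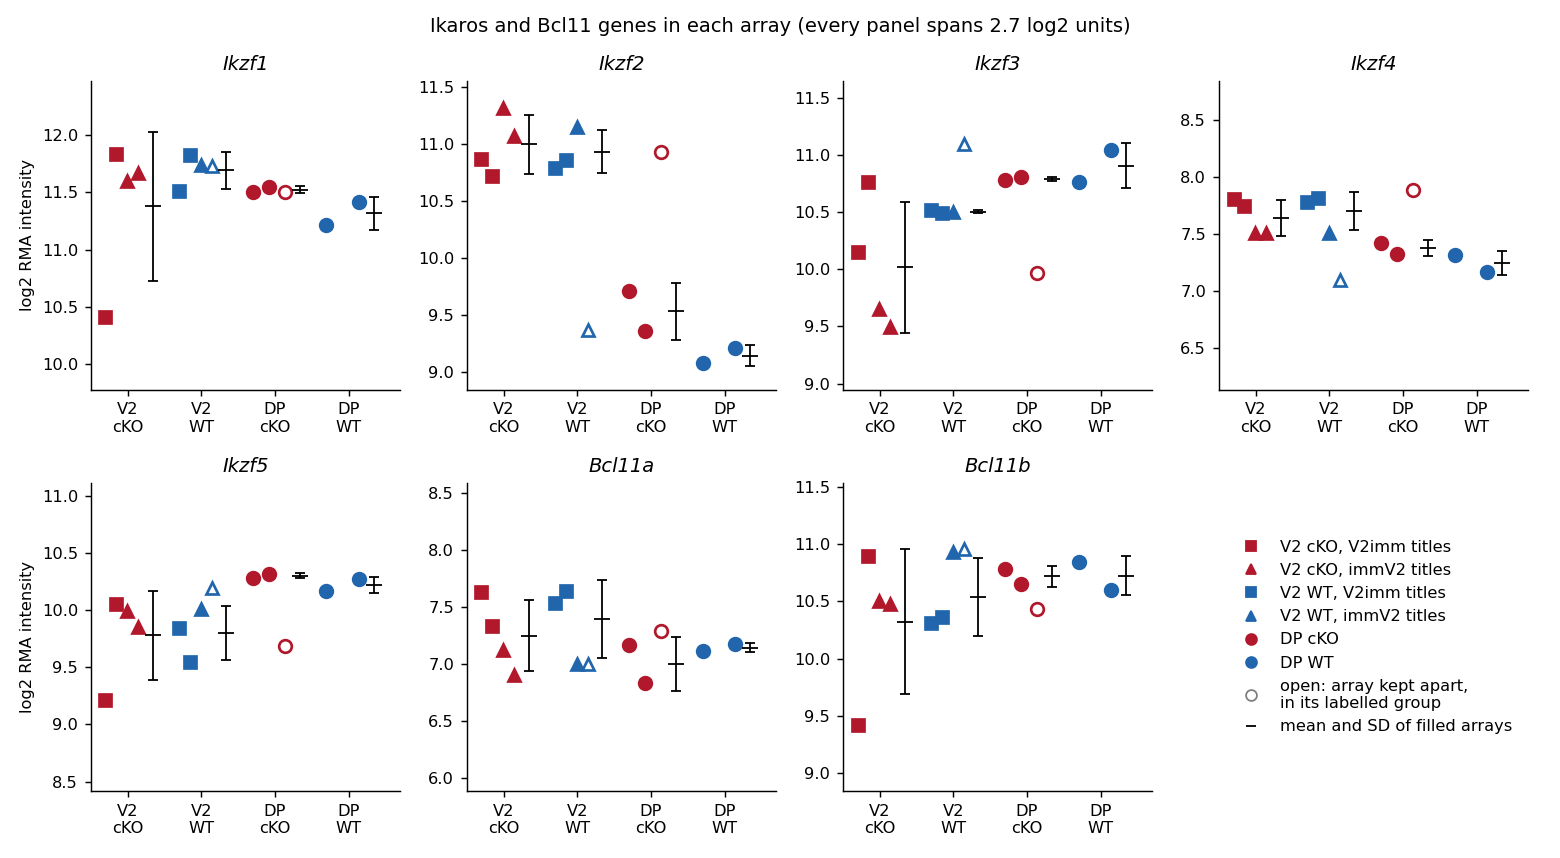
Log2 RMA intensity of the 7 genes (vertical axes) on each of the 13 arrays by group; filled symbols are the 11 arrays in the comparisons, open symbols the 2 kept apart, and black bars the mean and SD of the filled arrays. Ikzf2 lies above 10.7 on all 7 filled V2 arrays and below 9.8 on all 4 filled DP arrays.

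Helios was the only member called between V2 and DP cells. Ikzf2, a factor known from regulatory T cells and from thymocytes receiving strong T cell receptor signals, was 3.60-fold higher in V2 WT than in DP WT cells and 2.75-fold higher in V2 cKO than in DP cKO cells. The threshold was an adjusted p below 0.05 over all 19752 genes. In bulk RNA, fewer expressing cells and less RNA per cell cannot be told apart.

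Ikzf2 levels were 10.79, 10.85 and 11.15 on the V2 WT arrays, against 9.08 and 9.21 on the DP WT arrays. In cKO mice they were 10.87, 10.72, 11.32 and 11.07 on the V2 arrays, against 9.71 and 9.36 on the DP arrays. The lowest V2 array, 10.72, was above the highest DP array, 9.71, and within V2 cells the genotypes overlapped. The difference was 1.85 (SE 0.19, 95% interval 1.43 to 2.26, adjusted p = 4.76e-05) for V2 WT minus DP WT and 1.46 (SE 0.18, 95% interval 1.07 to 1.85, adjusted p = 0.000235) for V2 cKO minus DP cKO. Of all genes tested, 4.87% were called in the first comparison (3.2% higher, 1.67% lower) and 5.45% in the second (3.5% higher, 1.94% lower), and 3.38% were called the same way in both. The count of 1 in 7 members rests on a single gene in each. By absolute size, 194 of the 19752 genes differed by more than Ikzf2 in the WT comparison and 306 in the cKO comparison.

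On the arrays kept apart, Ikzf2 followed the markers and not the label. It was at 10.92 on the array labelled DP cKO replicate 5, inside the V2 range, and at 9.37 on the array labelled V2 WT replicate 5, inside the DP range. With all 13 arrays in their labelled groups the difference was 1.39 (SE 0.48, adjusted p = 0.473) for WT and 1.0 (SE 0.42, adjusted p = 0.559) for cKO, so the call depends on keeping those arrays apart. Ikzf2 was called in both comparisons without each of the 11 arrays in turn, with differences of 1.78 to 1.91 in WT (adjusted p at most 0.00125) and of 1.28 to 1.64 in cKO (adjusted p at most 0.0127). Within the V2imm titles alone the difference was 1.68 (adjusted p = 0.000742) in WT and 1.26 (adjusted p = 0.00573) in cKO, and within the immV2 titles alone 1.66 (adjusted p = 0.000748) in cKO. The single immV2 WT array gave 2.00 against DP WT, a value with no replicate of its own.

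Since Helios marks many regulatory T cells, 6 markers of these cells were read beside it. The 6 markers summed to 1647 to 3197 in V2 WT against 1216 to 1768 in DP WT, and to 1959 to 2839 in V2 cKO against 2420 to 2603 in DP cKO. Of the 6, Gpr83, a G protein-coupled receptor gene, was the only one called between V2 WT and DP WT (1.60, SE 0.28, adjusted p = 0.00351), and none was called between V2 cKO and DP cKO. Gpr83 was also called higher on V2imm than on immV2 arrays (1.08, SE 0.23, adjusted p = 0.0288). Il2ra, the interleukin-2 receptor α chain, gave 1.05 (SE 0.37, adjusted p = 0.165) in WT and -0.45 (SE 0.35, adjusted p = 0.706) in cKO. Foxp3, the defining factor, stayed between 6.86 and 7.44 on all 13 arrays, near the array medians, and differed by 0.15 (SE 0.16, adjusted p = 0.843) between V2 WT and DP WT and by 0.10 (SE 0.15, adjusted p = 0.888) between V2 cKO and DP cKO.

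Over the 11 arrays, the genes whose centred profiles lay nearest to Ikzf2 were Lcp1 and Trim30a. Lcp1, which encodes the actin bundling protein L-plastin of leukocytes, differed from Ikzf2 by a root-mean-square distance of 0.18 log2 units. Trim30a, of the tripartite motif family, differed by 0.19, where the median gene differed by 0.84. Since both were picked for likeness to Ikzf2 on these same arrays, their V2 minus DP differences largely follow from the choice. Lcp1 was 1.61 (SE 0.17) and Trim30a 1.71 (SE 0.24) higher in V2 WT than in DP WT. On the arrays kept apart, Lcp1 was at 12.72 on the array labelled DP cKO and 11.43 on the array labelled V2 WT, and Trim30a was at 11.16 on the array labelled DP cKO and 9.81 on the array labelled V2 WT.

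**Figure D2:**
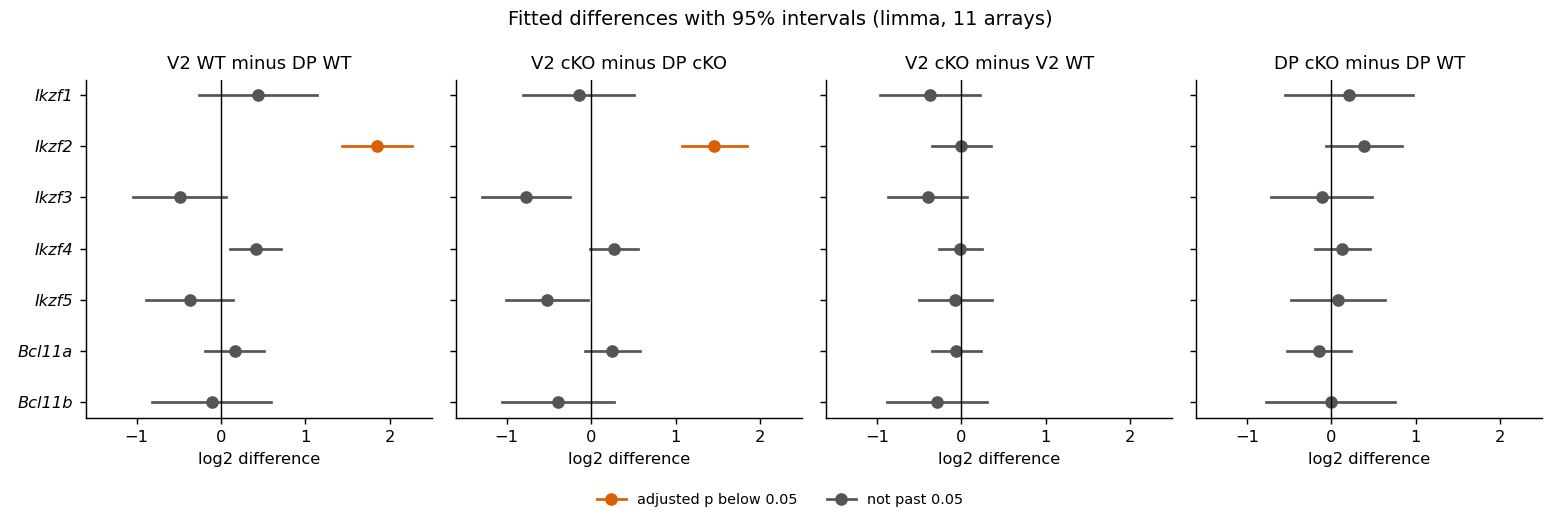
Fitted log2 differences (horizontal axes) with 95% intervals for the 7 genes in 4 comparisons of the 11 arrays; orange marks an adjusted p below 0.05 over all genes. Only Ikzf2 passes, at 1.85 in V2 WT minus DP WT and at 1.46 in V2 cKO minus DP cKO.

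The founding member of the family was bright in every group and did not differ between them past the threshold. Ikzf1 was at 11.52, 11.83 and 11.74 on V2 WT arrays, against 11.22 and 11.42 on DP WT arrays. On V2 cKO arrays it was at 10.41, 11.83, 11.60 and 11.67, against 11.50 and 11.55 on DP cKO arrays. All 3 V2 WT arrays lay above both DP WT arrays, while V2 cKO and DP cKO overlapped, and the single low value, 10.41, belonged to V2imm cKO replicate 4. The difference was 0.43 (SE 0.32, adjusted p = 0.71) for V2 WT minus DP WT and -0.14 (SE 0.30, adjusted p = 0.932) for V2 cKO minus DP cKO. Without V2imm cKO replicate 4 the cKO value was 0.19 (adjusted p = 0.538). The arrays kept apart read 11.50 (labelled DP cKO) and 11.73 (labelled V2 WT).

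Aiolos, which in lymphocytes can pair with Ikaros, had lower values in V2 than in DP cells, short of the threshold. Ikzf3 was at 10.52, 10.49 and 10.50 in V2 WT, against 10.76 and 11.05 in DP WT, and the groups did not overlap. It was at 10.15, 10.76, 9.65 and 9.50 in V2 cKO, against 10.78 and 10.80 in DP cKO, again without overlap. The difference was -0.49 (SE 0.26, adjusted p = 0.454) for V2 WT minus DP WT and -0.77 (SE 0.24, adjusted p = 0.0968) for V2 cKO minus DP cKO. Of the V2 cKO values, the highest was on V2imm cKO replicate 5 and the lowest 2 were on the immV2 arrays. Without V2imm cKO replicate 5, Ikzf3 was called lower in V2 cKO (-0.97, adjusted p = 0.00657), and also with the immV2 arrays alone (-1.22, adjusted p = 0.0128). The other 19 of 21 alternative settings gave no call, the weakest value being -0.33. On the arrays kept apart Ikzf3 was at 9.97 (labelled DP cKO), below every other DP array, and at 11.09 (labelled V2 WT), above every other V2 array.

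Eos, a partner of Foxp3 in regulatory T cells, stayed near the array medians. Ikzf4 was at 7.78, 7.82 and 7.51 in V2 WT, against 7.32 and 7.17 in DP WT. It was at 7.81, 7.75, 7.51 and 7.51 in V2 cKO, against 7.42 and 7.33 in DP cKO. Every V2 array lay above every DP array, by a narrow margin that ended at 7.51 and 7.42. The difference was 0.41 (SE 0.14, 95% interval 0.11 to 0.71, adjusted p = 0.147) in WT and 0.27 (SE 0.13, adjusted p = 0.394) in cKO. The arrays kept apart again took the values of the other population, 7.88 on the array labelled DP cKO and 7.09 on the array labelled V2 WT.

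Pegasus, the most divergent Ikaros family member, was measured by 2 probe sets. Ikzf5, on the brighter one, was at 9.85, 9.54 and 10.01 in V2 WT, against 10.17 and 10.27 in DP WT. It was at 9.21, 10.06, 9.99 and 9.85 in V2 cKO, against 10.28 and 10.32 in DP cKO. Every V2 array was below every DP array, yet the difference of -0.37 (SE 0.24, adjusted p = 0.618) in WT and of -0.52 (SE 0.22, adjusted p = 0.293) in cKO missed the threshold. Without V2imm cKO replicate 5, it was called lower in V2 cKO than in DP cKO (-0.70, adjusted p = 0.0328). The other 20 of 21 alternative settings gave no call. The dimmer probe set averaged 7.47 ± 0.42 in V2 WT (SD, n = 3) and 7.79 ± 0.38 in DP WT (n = 2), and 7.22 ± 0.66 in V2 cKO (n = 4) and 7.57 ± 0.34 in DP cKO (n = 2). Its V2 means were lower as well, but its V2 and DP arrays overlapped. The arrays kept apart read 9.69 (labelled DP cKO) and 10.20 (labelled V2 WT) on the brighter probe set.

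Across the 5 Ikaros genes, V2 and DP arrays did not overlap for Ikzf2, Ikzf4 and Ikzf5 over the 11 arrays. Such separation was seen for 8.28% of all genes. With WT arrays alone it held for all 5 Ikaros genes and neither Bcl11 gene (27.2% of all genes), and with cKO arrays alone for Ikzf2, Ikzf3, Ikzf4 and Ikzf5 (21.1% of all genes). Of these, Ikzf2 and Ikzf4 were higher in V2 cells in both genotypes, and Ikzf3 and Ikzf5 lower. Among the 7 genes the median difference was 0.16 in WT and -0.14 in cKO, against -0.02 and -0.01 over all genes.

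Bcl11b, the commitment factor of T cells, was bright in both populations. It was at 10.31, 10.37 and 10.94 in V2 WT, against 10.85 and 10.60 in DP WT. It was at 9.42, 10.90, 10.51 and 10.48 in V2 cKO, against 10.78 and 10.65 in DP cKO. The groups overlapped in both genotypes, and the lowest value lay on V2imm cKO replicate 4, the array with the low Ikzf1 and Ikzf5 values. The difference was -0.11 (SE 0.33, 95% interval -0.82 to 0.59, adjusted p = 0.978) in WT and -0.39 (SE 0.31, 95% interval -1.06 to 0.27, adjusted p = 0.704) in cKO. Without V2imm cKO replicate 5, whose Bcl11b was the highest of its group, the cKO difference was called (-0.72, adjusted p = 0.0279), and without replicate 4 it was -0.11. The other 20 of 21 alternative settings gave no call for Bcl11b. The arrays kept apart read 10.43 (labelled DP cKO) and 10.96 (labelled V2 WT).

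Bcl11a, a factor of B cell and dendritic cell development and of globin silencing, was dim. It was at 7.53, 7.64 and 7.0 in V2 WT, against 7.12 and 7.17 in DP WT. It was at 7.63, 7.33, 7.13 and 6.91 in V2 cKO, against 7.17 and 6.83 in DP cKO. These values straddle the array medians, and the groups overlapped in both genotypes. The difference was 0.16 (SE 0.16, adjusted p = 0.836) in WT and 0.25 (SE 0.15, adjusted p = 0.547) in cKO. The arrays kept apart read 7.29 (labelled DP cKO) and 7.0 (labelled V2 WT).

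By group mean (log2 intensity ± SD, with 4 V2 cKO, 3 V2 WT, 2 DP cKO and 2 DP WT arrays), the order of Ikzf2 from high to low was V2 cKO (10.99 ± 0.26), V2 WT (10.93 ± 0.19), DP cKO (9.54 ± 0.25) and DP WT (9.15 ± 0.09). Ikzf4 ran from V2 WT (7.70 ± 0.17) and V2 cKO (7.64 ± 0.16) to DP cKO (7.38 ± 0.07) and DP WT (7.25 ± 0.10). In both, the 2 groups of a population stood next to each other and were not called different, and the step between the populations separated all arrays. Ikzf5 and Ikzf3 ran the other way. Ikzf5 was ordered DP cKO (10.30 ± 0.02), DP WT (10.22 ± 0.07), V2 WT (9.80 ± 0.24) and V2 cKO (9.78 ± 0.39), and Ikzf3 was ordered DP WT (10.91 ± 0.20), DP cKO (10.79 ± 0.02), V2 WT (10.50 ± 0.02) and V2 cKO (10.02 ± 0.57). For Ikzf3 V2 cKO replicate 5 of the V2imm titles reached into the DP values. The order had no clear step for Ikzf1, with V2 WT (11.70 ± 0.16), DP cKO (11.53 ± 0.03), V2 cKO (11.38 ± 0.65) and DP WT (11.32 ± 0.14), nor for Bcl11b, with DP WT (10.72 ± 0.17), DP cKO (10.72 ± 0.09), V2 WT (10.54 ± 0.34) and V2 cKO (10.32 ± 0.64). Bcl11a was highest in V2 WT (7.39 ± 0.34), followed by V2 cKO (7.25 ± 0.31), then by DP WT (7.15 ± 0.04) and last by DP cKO (7.0 ± 0.23), and neighbouring groups differed by less than the larger of their SDs. Neighbours that differ in both population and genotype were not tested.

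No member was called between cKO and WT in either population. Among all genes, 0.0% were called for V2 cKO minus V2 WT by limma, and 757 genes (3.83%), none of them a member, had an unadjusted p under 0.05. For DP cKO minus DP WT 0.0253% were called, or 5 genes (0.0152% higher, 0.0101% lower), and 2.71% had an unadjusted p under 0.05, again with no member. The 95% intervals give the range of differences compatible with these arrays, gene by gene and without adjustment for the number of genes. For V2 cKO minus V2 WT, Ikzf2 differed by 0.00 (SE 0.16, 95% interval -0.35 to 0.35), Ikzf4 by -0.01 (interval -0.27 to 0.24), Bcl11a by -0.06 (interval -0.35 to 0.23) and Ikzf5 by -0.07 (interval -0.50 to 0.36). Wider intervals belonged to Ikzf1 at -0.37 (interval -0.96 to 0.22), Ikzf3 at -0.40 (interval -0.86 to 0.07) and Bcl11b at -0.29 (interval -0.88 to 0.30). No member's V2 cKO and V2 WT arrays were free of overlap, as 3.45% of all genes were.

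Leaving out either V2imm cKO array moved Ikzf1, Ikzf5 and Bcl11b. Without replicate 4, the array with the lowest upper quartile of intensity (8.38), V2 cKO minus V2 WT was 0.03 for Ikzf1, 0.14 for Ikzf5 and 0.06 for Bcl11b. Without replicate 5, the array whose Sox4 was high, it was -0.68 for Ikzf1 (adjusted p = 0.204), -0.28 for Ikzf5 (adjusted p = 0.422), -0.64 for Ikzf3 (adjusted p = 0.159) and -0.68 for Bcl11b (adjusted p = 0.128). Neither choice gave a call. Ikzf3 was at -0.05 without the immV2 WT array, which leaves the V2imm arrays to set it, and at -0.93 with the immV2 arrays alone, where WT is that single array. Of 9 listed γδ markers 5 were measured, and none of them was called between V2 cKO and V2 WT. Their summed intensity was 4401 to 8621 on V2 cKO arrays and 11359 to 12666 on V2 WT arrays. The lowest sum, 4401, was on V2imm cKO replicate 4. The part of these markers in the members' values was not tested.

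In DP cells Ikzf2 was at 9.71 and 9.36 in cKO, against 9.08 and 9.21 in WT. Both cKO arrays were above both WT arrays, but the difference of 0.39 (SE 0.21, 95% interval -0.06 to 0.84, adjusted p = 1.0) was not called. Ikzf1 (0.21, SE 0.35), Ikzf4 (0.13, SE 0.15) and Ikzf5 (0.08, SE 0.26) also had cKO arrays above WT arrays without a call, a separation that 29.8% of all genes showed with 2 arrays on each side. On the dimmer Ikzf5 probe set the DP cKO mean, 7.57, was below the DP WT mean, 7.79, and the arrays overlapped. Ikzf3 (-0.12, SE 0.28), Bcl11a (-0.15, SE 0.17) and Bcl11b (-0.01, SE 0.35) overlapped. A test of whether the cKO effect differed between V2 and DP cells called no member and 0.0% of all genes. An unadjusted p under 0.05 was reached by 372 genes (1.88%) and no member. For Ikzf2 it gave -0.39 (SE 0.26) and for Ikzf1 -0.58 (SE 0.44).

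Within V2 cells, part of the spread of these genes followed the way the titles are written. Ikzf2 was at 10.72 to 10.87 on the 4 V2imm arrays and at 11.07 to 11.32 on the 3 immV2 arrays in the comparison. Ikzf4 was at 7.75 to 7.82 on V2imm arrays and at 7.51 on each of these 3 immV2 arrays. Bcl11a was at 7.33 to 7.64 on V2imm arrays and at 6.91 to 7.13 on immV2 arrays. These 3 genes did not overlap between the title forms, as 14.9% of all genes did not. In the fit, V2imm minus immV2 was 0.51 for Bcl11a (SE 0.13, adjusted p = 0.0684), 0.53 for Ikzf3 (SE 0.21, adjusted p = 0.241), 0.28 for Ikzf4 (SE 0.12, adjusted p = 0.254) and -0.37 for Ikzf2 (SE 0.16, adjusted p = 0.267). None passed the threshold, while 2.5% of all genes did (1.1% higher, 1.4% lower). With 13 arrays as labelled, Bcl11a was called (0.53, adjusted p = 0.0489). That setting counts V2 WT replicate 5, the array with DP markers, as an immV2 array. Without V2imm cKO replicate 5, Bcl11a (0.60, adjusted p = 0.012), Ikzf5 (-0.51, adjusted p = 0.0463) and Bcl11b (-0.84, adjusted p = 0.00828) were called, where 4358 of all genes were.

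**Figure D3:**
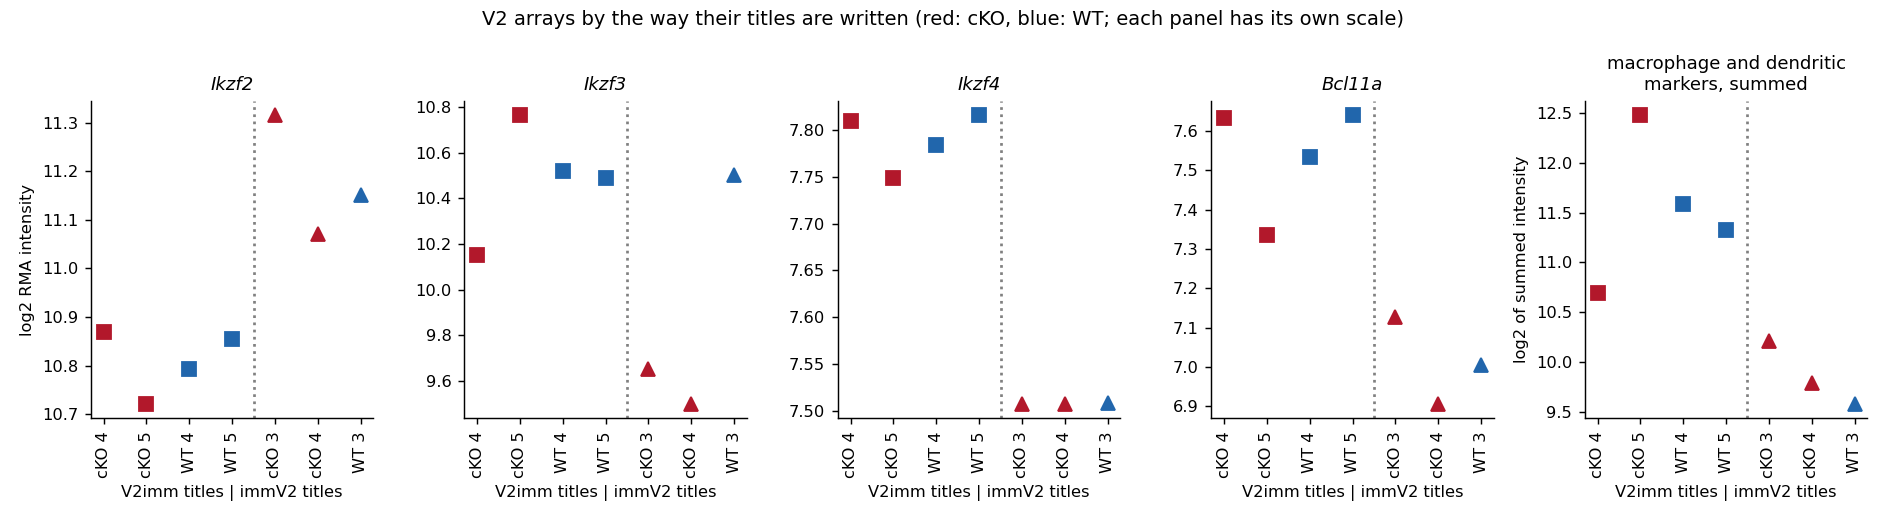
Log2 RMA intensity of Ikzf2, Ikzf3, Ikzf4 and Bcl11a and log2 of the summed intensity of 10 macrophage and dendritic cell markers (vertical axes, each with its own scale) on the 7 V2 arrays in the comparisons, with V2imm titles left of the dotted line and immV2 titles right of it. Bcl11a, Ikzf4 and the marker sum are higher on every V2imm array than on any immV2 array, and Ikzf2 is lower.

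Markers of myeloid cells moved with the titles. The 10 macrophage and dendritic cell markers summed to 1660 to 5697 on V2imm arrays and to 766 to 1185 on immV2 arrays, where DP arrays had 807 to 908. Of the 10, 5 were called higher on V2imm arrays, and they are named here after their values were seen. They were Cd74, the class II invariant chain (3.03, adjusted p = 0.00898), Lyz2, a myeloid lysozyme (2.27, adjusted p = 0.0143), Fcer1g, the Fc receptor γ chain (1.30, adjusted p = 0.000861), H2-Aa, a class II chain (2.76, adjusted p = 0.0157), and Spi1, the myeloid factor PU.1 (0.64, adjusted p = 0.0383). On immV2 arrays 7 to 9 of the 10 markers were below the array median, and on V2imm arrays 3 to 6. The highest sum, 5697, was on V2imm cKO replicate 5. Among the 7 measured B cell markers none was called higher and 1 was called lower on V2imm arrays, Cd79b, a chain of the B cell receptor complex (-1.02, adjusted p = 0.0212). Their sums were 854 to 1010 on V2imm arrays and 949 to 1825 on immV2 arrays. None of 6 measured plasmacytoid dendritic cell markers was called between the title forms. Their sums were 5116 to 11205 on V2imm arrays and 9841 to 12114 on immV2 arrays. The part of these cells in the values of Bcl11a, Ikzf3 and Ikzf4 was not tested.

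Partners of the Ikaros and Bcl11 proteins in NuRD and related corepressors gave calls in both directions. Of 17 such genes, 2 were higher and 2 lower in V2 WT than in DP WT, where 3.2% of all genes were called higher and 1.67% lower, with a list median of 0.09 against -0.02 over all genes. Chd3, a Mi-2 remodeller of NuRD, was 2.16 higher (SE 0.26, adjusted p = 0.000191). Mta1, another NuRD subunit, was 0.76 higher (adjusted p = 0.0496). Sin3b, a scaffold of the separate SIN3 deacetylase complex, was 1.01 lower (difference -1.01, adjusted p = 0.0152), and Mbd2, the methyl-CpG binding subunit of NuRD, gave -0.93 (adjusted p = 0.00637). In cKO mice Chd3 (1.85, adjusted p = 0.000405) and Sin3b (-1.16, adjusted p = 0.00359) were called between V2 and DP, and Mta1 (0.36) and Mbd2 (-0.56) were not. None of the 17 was called between cKO and WT in either population.

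In a list of transcription factors drawn up around T cell identity, Spi1 and Lmo2 among them, all calls between V2 and DP were higher in V2. In V2 WT minus DP WT, the list median was 0.07, against -0.02 over all genes, of which 3.2% were called higher and 1.67% lower. Of 14 measured, 2 were higher in V2 WT than in DP WT and none lower. They were Runx3, a Runt factor that silences Cd4 (3.04, SE 0.26, adjusted p = 8.75e-06), and Gata3, needed at several steps of T cell development (1.76, SE 0.23, adjusted p = 0.000388). Gfi1, a repressor (-0.83, adjusted p = 0.0831), and Lef1, an HMG box factor (0.62, adjusted p = 0.228), came next in p and were not called. In cKO mice 3 of the 14 were higher in V2 than in DP, where 3.5% of all genes were called higher and 1.94% lower. Among the 3 were Runx3 (1.93, adjusted p = 0.000283) and Gata3 (1.64, adjusted p = 0.000405). The third, Spi1 (0.78, adjusted p = 0.0123), is also among the myeloid markers above. None was called between cKO and WT.

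The 2 lists of reported target genes held more called genes. Of all genes, 3.2% were called higher in V2 WT than in DP WT and 1.67% lower, with a median of -0.02. Of 15 measured genes reported as Ikaros targets, 1 was higher and 6 were lower, with a median of -0.06. Rag1 (-5.98, SE 0.18, adjusted p = 4.59e-10) and Rag2 (-6.15, SE 0.25, adjusted p = 7.95e-09), the recombinase genes of DP cells, and Cd4 (-5.50) and Cd8a (-5.14) led them. Cd4 and Cd8a were used to sort the cells, so their difference is that of the gates. All 6 lower genes are also on the DP marker list. The 1 called gene that was higher, Myc, named here after its value was seen, regulates growth (1.49, adjusted p = 0.00052). In cKO mice the list median was -0.61. With 3.5% of all genes called higher there and 1.94% lower, 1 of the list was higher and the same 6 were lower. There the higher one was Hes1, a Notch target (0.76, adjusted p = 0.0432), and Myc was not called (0.42, adjusted p = 0.322).

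Of 13 measured genes reported as Bcl11b targets, 5 were higher and 5 lower in V2 WT than in DP WT, and the counts in cKO mice were the same, where 4.87% of all genes were called in WT and 5.45% in cKO. Cd4 and Cd8a, the sort markers, are among the 5 lower genes, and Il2rb, among the higher, is also on the γδ marker list. Runx3, another of the higher genes, was counted above with the T identity factors. The list median was 0.08 in WT and -0.07 in cKO. Il2rb, the interleukin-2 receptor β chain, was higher (3.49, SE 0.26, adjusted p = 3.41e-06), and Ly6d, a surface protein of early lymphocytes, was lower (-3.93, SE 0.32, adjusted p = 7.09e-06). In cKO mice the values were 3.08 for Il2rb and -3.79 for Ly6d. Of both target lists, no gene was called between cKO and WT in V2 or in DP cells.

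**Figure D4:**
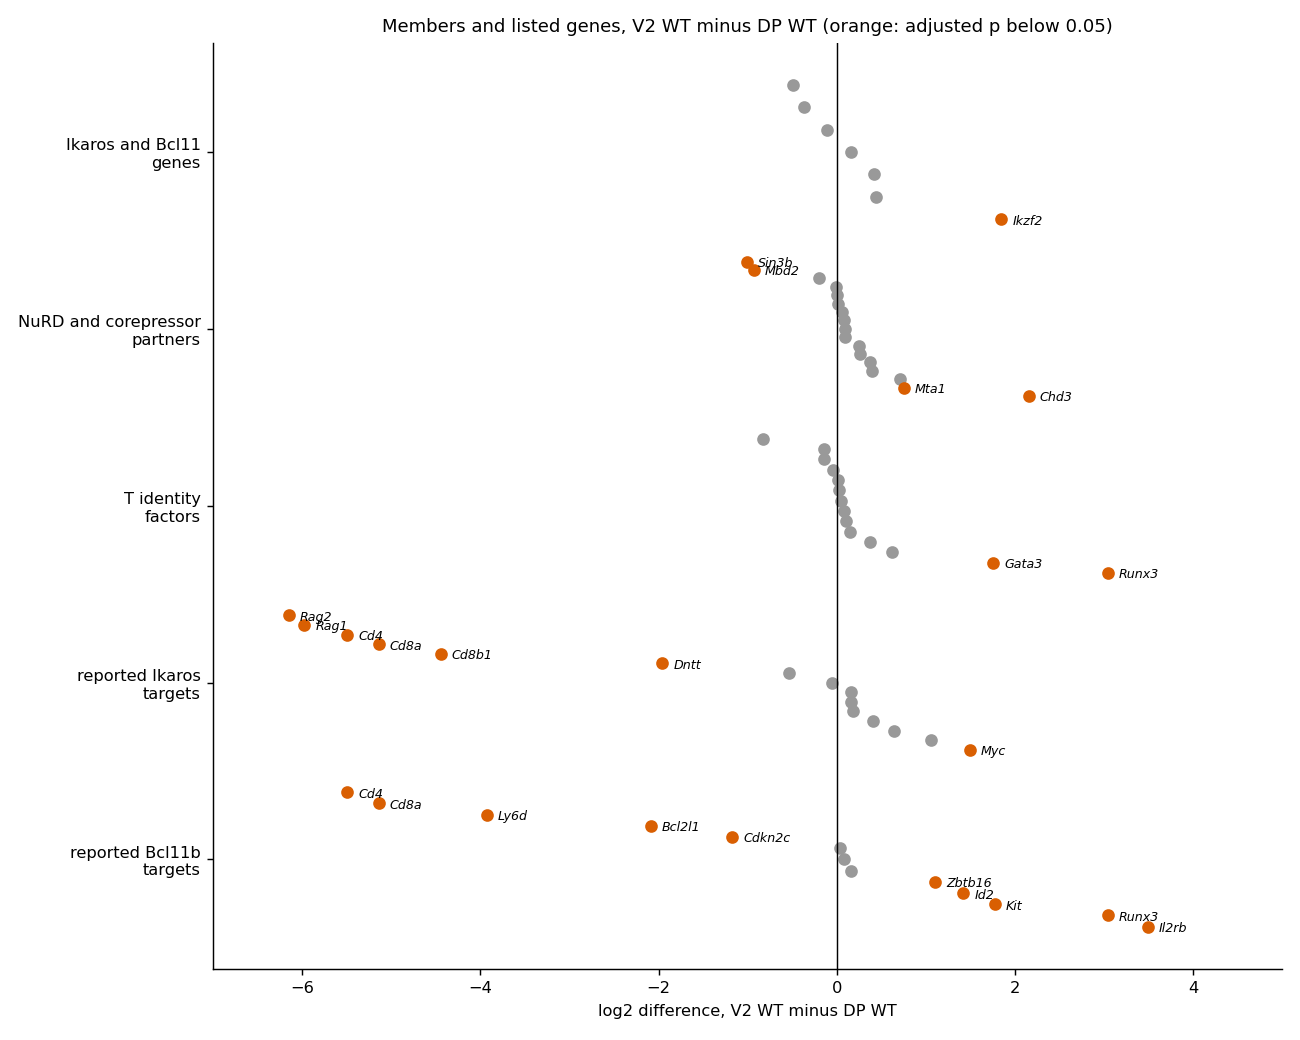
Log2 difference, V2 WT minus DP WT (horizontal axis), of the 7 Ikaros and Bcl11 genes and of the measured genes of 4 lists, 1 point per gene, with orange and a name where the adjusted p was below 0.05. Ikzf2 at 1.85 is the only named point in the top row, and Chd3 at 2.16 is the highest of the NuRD and corepressor list.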

How the data were processed

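RNA of sorted thymocytes was hybridised to Affymetrix arrays (13 arrays, 24922 probe sets). The deposited values are RMA intensities on a linear scale (6.16 to 23800), which the authors made with RMA; the submitters' processing notes also name Affymetrix Power Tools. Versions, build and background settings are not given in the sources used here. From them log2 values were taken. Of the probe sets, 21425 had 1 annotated symbol, 1399 several and 2098 none listed; 21347 of the first matched RefSeq names. For the 921 genes with several probe sets the brightest by mean was used.

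All 4 groups entered 1 fit of 11 arrays (limma 3.58.1, R 4.3.3; eBayes with intensity trend, title form of the V2 arrays as covariate, 6 residual degrees of freedom), with two-sided p-values adjusted by Benjamini-Hochberg over 19752 genes and a threshold of 0.05. The fit was tested on simulated data. Alternatives were 13 arrays as labelled, no covariate, quantile normalization, a filter on dim genes, the mean of probe sets, no trend, robust moderation, a replicate block, 1 title form, and each array left out. Intervals are 95%. The number of arrays limits precision. Likeness to a gene is the root-mean-square difference of centred log2 profiles over the 11 arrays.

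The members, gene lists and the 2 arrays kept apart were chosen with earlier results of these data known. Genes named are the 7 members, Sox4, up to 4 genes per list with the smallest p in V2 WT minus DP WT, and the 2 genes most like a member called there; other genes, markers among them, were named after their values were seen. The comparison of V2imm with immV2 titles, and V2 minus DP within 1 title form, were added after seeing the data. Tcf7 and Cdkn1a were not analysed here. Promoter windows are from RefSeq, GRCm38.p6.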

Additional observations from a re-analysis of the deposited data

Results flagged for a closer look

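Ikzf1 on V2 cKO replicate 4 (V2imm) was at 10.41, far below the other V2 cKO arrays at 11.6 to 11.83; the gap was 0.838 of the group's range. This array also had the lowest Ikzf5 and Bcl11b of its group. Ikzf3 on V2 WT replicate 5 (immV2), one of the arrays kept apart, was at 11.09, far above the other V2 WT arrays at 10.49 to 10.52; the gap was 0.949 of the range. Each of these values was the extreme of a group of 4 arrays, and 14 such groups were looked at. In groups of like arrays chance marks about 1 in 20. Each V2 WT group held V2 WT replicate 5 (immV2), which carried DP markers, so that rate does not apply to those groups.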

How the results depend on the processing

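Counts of called genes, over all 19752, moved as follows. With 13 arrays as labelled they were 11 (V2 WT minus DP WT), 7 (V2 cKO minus DP cKO), 0 (DP cKO minus DP WT) and 309 (V2imm minus immV2). Without the title-form covariate they were 594, 637 and 3 for the first 3 of these. For V2 cKO minus V2 WT they were 13 with quantile normalization, 8 with a filter on dim genes, 6 with robust moderation, 5 within V2imm and 9 within immV2 arrays, against 0. For DP cKO minus DP WT they were 9 with quantile normalization and 8 with the filter, against 5. V2 WT of the immV2 titles alone gave 467 against DP WT. Both immV2 counts that involve WT rest on a single WT array, which is assumed to vary like the other groups. Leaving out 1 array gave 477 to 1575 (V2 WT minus DP WT), 480 to 1632 (V2 cKO minus DP cKO), 0 to 44 (V2 cKO minus V2 WT), 0 to 14 (DP cKO minus DP WT), 0 to 4 (difference of cKO effects) and 207 to 4358 (V2imm minus immV2). The cause was not tested.

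Ikzf2 kept its direction in both V2 minus DP comparisons over 21 alternatives each (1.39 to 2.00 and 1.0 to 1.66) and lost its call only with 13 arrays. Members that turned sign were uncalled on both sides. Using 13 arrays gave 0.093 for Ikzf4 (V2 cKO minus V2 WT), -0.12 for Ikzf5 (DP cKO minus DP WT), 0.0031 for Ikzf5 (difference of effects) and 0.083 for Ikzf2 (V2imm minus immV2). Within immV2, V2 WT minus DP WT was -0.14 for Bcl11a and 0.21 for Bcl11b, V2 cKO minus DP cKO was 0.11 for Ikzf1, and V2 cKO minus V2 WT was 0.012 for Bcl11a; within V2imm the last was -0.028 for Ikzf2. The mean of probe sets gave -0.066 for Ikzf5 and quantile normalization 0.0019 for Bcl11b (DP cKO minus DP WT). Leaving out 1 array gave these ranges. For V2 minus DP they were -0.24 to 0.010 (WT, Bcl11b) and -0.40 to 0.19 (cKO, Ikzf1). For V2 cKO minus V2 WT they were -0.68 to 0.030 (Ikzf1), -0.045 to 0.044 (Ikzf2), -0.026 to 0.0044 (Ikzf4), -0.28 to 0.14 (Ikzf5), -0.12 to 0.029 (Bcl11a) and -0.68 to 0.056 (Bcl11b). For DP cKO minus DP WT they were -0.26 to 0.025 (Ikzf3), -0.31 to 0.020 (Bcl11a) and -0.13 to 0.12 (Bcl11b). For the difference of effects they were -0.52 to 0.070 (Ikzf3), -0.37 to 0.057 (Ikzf5), -0.078 to 0.25 (Bcl11a) and -0.68 to 0.063 (Bcl11b), and for V2imm minus immV2 -0.64 to 0.066 (Ikzf1).

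In V2 cells, correlations between arrays of the same replicate number were not consistently higher than between others. Deviations from the group mean correlated at 0.27 (replicate 4) and -0.11 (replicate 5) in V2imm, against 0.14 and 0.50 for unlike numbers. In immV2 it was 0.52 against 0.60. These deviations still hold the difference between the title forms and rest on few pairs, so they cannot show that replicates were unpaired. The 0.18 in DP cannot tell, since the 2 deviations of each group mirror each other. With the number as a replicate block the counts were 956 and 974 for V2 minus DP in WT and cKO, and 202 for V2imm minus immV2. With the block set within each title form they were 34 for V2 cKO minus V2 WT, 8 for DP cKO minus DP WT and 4 for the difference of effects. Without a block these counts were 0, 5 and 0. The blocks turned Bcl11b to 0.038 (V2 WT minus DP WT), Ikzf3 to 0.012 and Bcl11a to 0.049 (DP cKO minus DP WT), and Bcl11a to -0.078 (difference of effects), all uncalled.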
